A study of Homo sapiens with 16 samples.

Results

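The 56 genes described here encode translation initiation factors and the proteins named with them. They are the protein-coding genes whose symbols begin with EIF1, EIF2, EIF3, EIF4, EIF5 or EIF6, taken from 38353 protein-coding and long noncoding genes of a RefSeq table. N6-methyladenosine (m6A), a methyl mark on adenosines of messenger RNA, was mapped by m6A-eCLIP in U87 MG, an established human glioma line, and in 2 states of U87-R, a line derived from it that resists temozolomide (TMZ), a drug that alkylates DNA. Per the labels, 3 libraries came from U87 with a DMSO label, 3 from U87-R with a DMSO label, and 2 from U87-R treated with 50 µM STM2457 for 96 hours, a compound that inhibits METTL3, the enzyme that writes m6A. The medium of U87-R held 50 µM TMZ. Resistance and the drug in the medium therefore cannot be told apart in any difference between the lines. Nothing in the labels says whether replicates were separate cultures, so p-values rest on the spread between libraries alone, and that spread may be technical.

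Initiation begins when eIF2 brings the initiator tRNA to the small ribosomal subunit, which eIF1, eIF1A, eIF3 and eIF5 hold ready for scanning. The cap is bound by eIF4E, which joins the scaffold eIF4G and the helicase eIF4A, and the large subunit joins at the start codon with the help of eIF5B. Stress kinases that phosphorylate eIF2, and 4E-binding proteins that take up eIF4E, are the main brakes, and mRNA methylation is known to lie most often in long exons and around stop codons, where METTL3 places it.

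Each library was a deposited list of called bases with a score, and a gene's level was the sum of the scores of the bases inside its span on its strand. Methylation, RNA abundance and sequencing depth all enter the score, and they cannot be told apart because the input libraries were not analysed here and depth is unknown. A sum of 0 means that no base of the gene was called in that library, not that 0 was measured. The 8 libraries held 105900 to 192697 called bases, and both treated libraries held fewer than any untreated one. Of 7 glioma line genes looked for as a check of the label, 5 had a called base (CD44, NES, OLIG2, TNC and VIM), and of the genes of other cell types CD68, MBP, PECAM1 and RBFOX3 did, with MBP and RBFOX3 too low to test, while PTPRC, EPCAM, KRT18, CDH5 and SNAP25 had none. These are marks on RNA and do not measure expression.

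Of the 56 genes, 48 had a called base in at least 1 library, and 8 had none (EIF3M, EIF3K, EIF3E, EIF2S3B, EIF5A, EIF5A2, EIF4E1B and EIF1AY). Another 6 had called bases but too little score for a test, namely EIF2D, EIF4EBP2, EIF3CL, EIF2B4, EIF4E3 and EIF4H. EIF2B4, the delta subunit of eIF2B, summed to 66.5 in treated replicate 1 and had no called base in the other libraries. The remaining 42 passed the filter of a summed score of at least 10 in at least 2 libraries, and 34 of these had a called base in all 8 libraries. In all, 1260 bases of the genes were called in some library. EIF3C and EIF3CL are near-identical copies, EIF5AL1 is a copy of EIF5A, and EIF2S1, EIF4A1 and EIF4EBP3 share called bases with an overlapping gene of the same strand, so the values of these genes are uncertain.

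**Figure D1:**
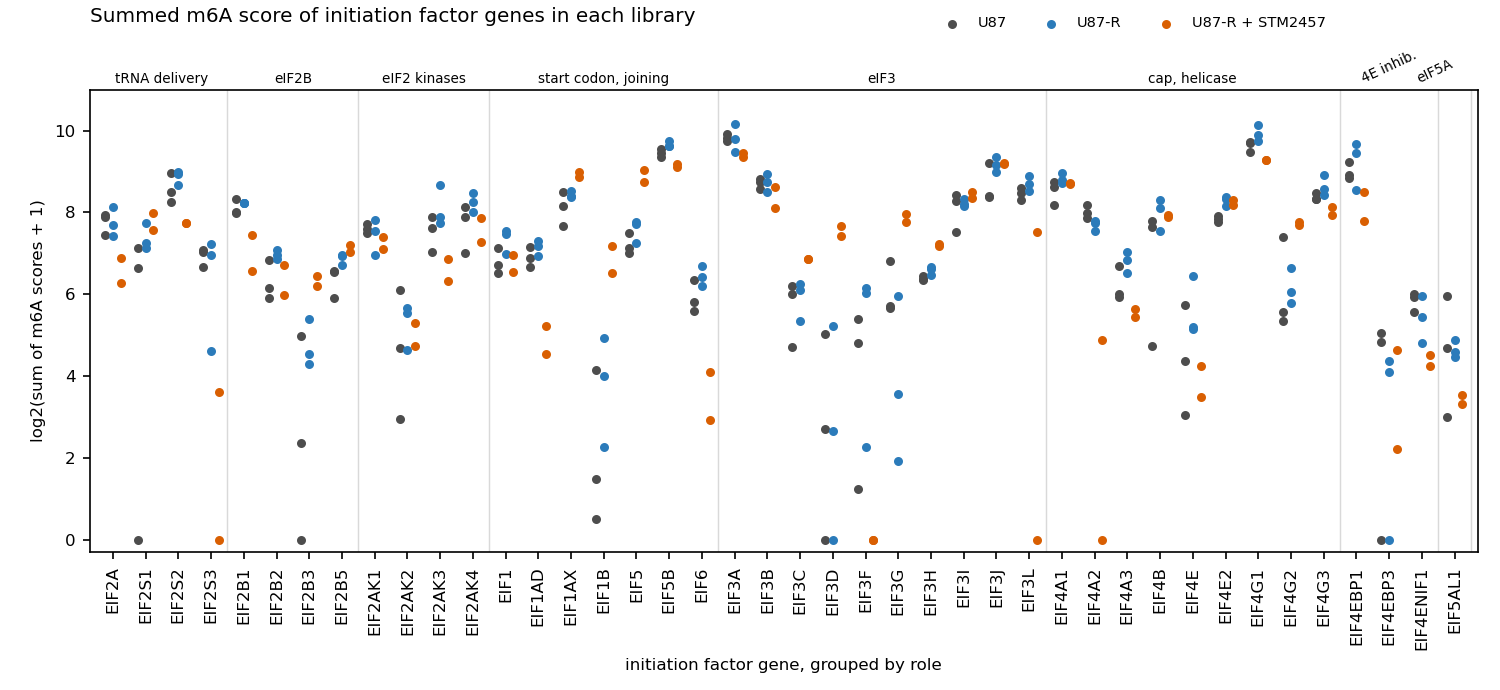
Summed m6A score of the 42 tested genes in each of the 8 libraries, as log2(sum + 1) on the vertical axis, with genes grouped by role along the horizontal axis and 1 point per library. In EIF4A2, EIF1AD and EIF6 the treated points lie below all untreated ones, in EIF3D, EIF3G and EIF5 above them, and points at 0 are libraries in which no base of the gene was called.

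A large part of the score of these genes, pooled, lay within 50 nt of their annotated 5′ ends, and this part was larger with STM2457. It was uneven between genes. Of the 42 tested genes, 27 had a called base there in some library and 15 had none. EIF3J, EIF4A1 and EIF1AX had the most, with U87-R means of 442, 403 and 344 out of 2841 for all members. Of the members' score, 19.6%, 27.4% and 19.9% lay within 50 nt of the annotated 5′ end in the U87 libraries, 24.7%, 29.3% and 27.5% in the U87-R libraries, and 44.6% and 46.1% in the treated ones. All other genes had 6.80% ± 0.58 (SD, n = 3) in U87, 7.91% ± 0.90 (SD, n = 3) in U87-R and 22.1% ± 0.59 (SD, n = 2) with STM2457. In every library the members had a higher share than the rest, a difference that was not tested, and both treated libraries had a higher share than any untreated one, in the members as in the rest. For the members the treated share exceeded that of U87-R by 18.2 percentage points (exact two-sided permutation test, p = 0.1, the smallest that 3 against 2 libraries allow). The share in U87-R against U87 did not differ by more than the spread between libraries (exact two-sided permutation test, p = 0.2).

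**Figure D2:**
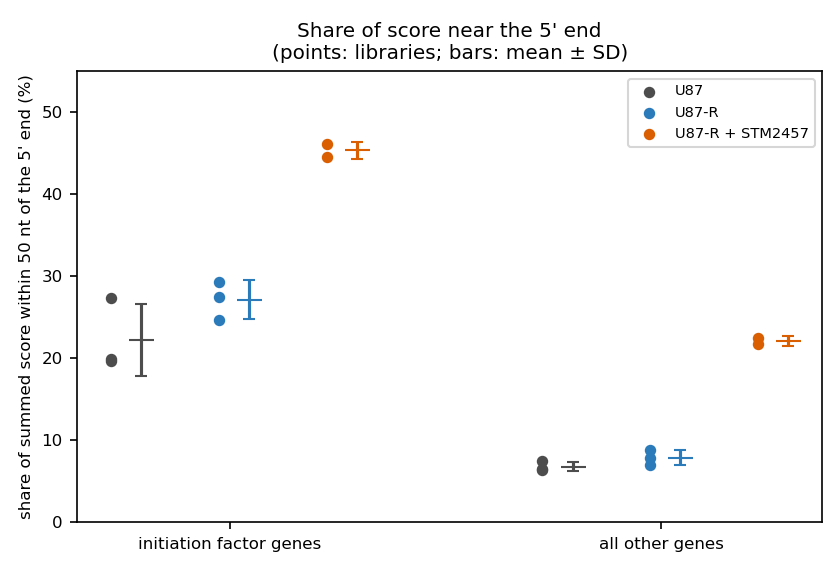
Share of the summed score that lay within 50 nt of the annotated 5′ end, in percent, for the initiation factor genes (left) and for all other genes (right). Points are libraries and bars are the mean ± SD of each group; the treated libraries of the members lie at 44.6% and 46.1%, against 24.7% to 29.3% in U87-R.

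Both places contributed to the higher share. The members' summed score within 50 nt of the 5′ end was 1543, 2657 and 1806 in U87, then 2846, 2779.7 and 2899 in U87-R, while STM2457 gave 3913 and 3743, 1.35 times the U87-R mean. Farther inside the genes the sum was 6319, 7053 and 7276 in U87, then 8686, 6698 and 7634 in U87-R, while STM2457 gave 4859 and 4379.98, 0.602 times the U87-R mean. Neither pair of groups overlapped (exact two-sided permutation tests, p = 0.1 each, the smallest possible). In all other genes the sum near the 5′ end was 1.73 times that of U87-R and the sum inside was 0.518 times, so both shifts of the members were smaller in size than those of the rest, and the difference was not tested. Between the lines the members' sum near the 5′ end was 1.42 times as high in U87-R as in U87, again without overlap (exact two-sided permutation test, p = 0.1, the smallest possible), and in all other genes it was 1.23 times. Inside, the lines overlapped (exact two-sided permutation test, p = 0.3).

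Start sequences were available for 47 members in the RefSeq promoter table (GRCh38.p14, whose coordinates are those of hg38), and 28 of these had a called base within the first 49 bases. They are shown for the 7 members with the highest treated score at the leading base, since these bases carried the signal that stayed high under the inhibitor. Each line gives 21 bases, 5′ to 3′, with the called base in capitals.
EIF1AX, chrX:20141825-20141845, minus strand: tcgcggcgccAtttgctgccg
EIF3J, chr15:44537160-44537180, plus strand: ctctccctctCacacacgctc
EIF4A1, chr17:7572818-7572838, plus strand: actccgccctAgtttctaagg
EIF3I, chr1:32222397-32222417, plus strand: ttccggtcttActcacgttgc
EIF5, chr14:103334227-103334247, plus strand: ggcgttgttcAgtcagagcga
EIF5B, chr2:99337385-99337405, plus strand: actcacaccaTatgtgtcctg
EIF4E2, chr2:232550679-232550699, plus strand: agcggaagtcActccctgagg

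The capital base lay on the RefSeq start itself in EIF3I, EIF5 and EIF4E2, and 3 nt after it in EIF1AX and EIF4A1. In EIF1AX, whose protein eIF1A takes part in scanning, its score was 84.5, 95.01 and 95.8 in U87, against 93.3, 117 and 104 in U87-R and 138 and 144 after STM2457. In EIF3I, an eIF3 subunit, it was 42.9, 56.5 and 59.3 in U87, against 62.4, 81.3 and 63.4 in U87-R and 119 and 118 after STM2457. In EIF4E2, a cap-binding homologue of eIF4E, it was 35.4, 48.5 and 36.8 in U87, against 46.8, 48.2 and 50.01 in U87-R and 97.96 and 93.9 after STM2457. In these 3 genes both treated libraries lay above every untreated one. The bases were chosen for their treated score, so this is a description with no test. In EIF4A1, which encodes the main helicase, the base reached 60.9, 80.2 and 56.3 in U87, against 88.4, 107 and 98.2 in U87-R and 109 and 112 after STM2457.

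The letters at these bases were described without a test. Over the 28 leading bases, 20 were A, 13 were A preceded by C, 17 lay within 5 nt of the RefSeq start and 10 on it. None of the 28 was the A of AAC or GAC, the letters at the centre of the usual METTL3 motif, searched on the gene's own strand. Of all 159 member bases called within the first 49 bases, 46.5% were A, 23.3% were the A of CA and 1.89% the A of AAC or GAC. Over every base of the same window in the 47 members these shares were 16.1%, 5.77% and 1.81%, and over all other genes' called bases 48.7%, 27.2% and 2.06%. Letters farther inside the genes were not read, because no genome was used here.

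The comparison of U87-R with U87 asks what parts the resistant cells from the parental line, and none of the 42 genes was called in it. The test was limma on log2(sum + 1) over all 10844 genes with enough score, called at a Benjamini-Hochberg adjusted p under 0.05. It called 1.42% of all genes, and the smallest adjusted p of a member was 0.253. At an unadjusted p under 0.05 the members gave 2, against 12.6% of all genes. The changes of 34 of the 42 were above 0 (81%, against 62.3% of all genes), with a median log2 change of 0.27, against 0.12 over all genes. This lean depended on the scaling and the measure. With libraries centred on their median 28 of 42 were above 0, with a median of 0.11, against -0.04 over all genes. By the number of called bases 25 of 43 were, with a median of 0.05, against 0.02. The share of all genes above 0 was not taken in these 2 runs. The groups did not overlap in 6 genes that were higher in U87-R (background 11.0%), EIF2B2, EIF2B5, EIF3H, EIF4E2, EIF4G1 and EIF5B, and in 1 that was lower (background 5.15%), EIF4A2.

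The 3 members with the smallest p between the lines were EIF4E2, EIF3G and EIF3J. EIF4E2 summed to 218, 228 and 241 in U87, against 320.1, 285 and 329.5 in U87-R and 291 and 317 after STM2457. All U87-R libraries lay above all U87 libraries. The change was 0.44 ± 0.15 (SE; limma adjusted p = 0.253). EIF3G, an RNA-binding subunit of eIF3, summed to 112, 49.7 and 51.7 in U87, against 10.8, 61.2 and 2.79 in U87-R and 249.9 and 216 after STM2457. The change was -2.25 ± 0.91 (SE; limma adjusted p = 0.346). Its U87-R replicate 2 lay inside the range of U87. EIF3J, a loosely bound eIF3 subunit, summed to 331, 586 and 339 in U87, against 651, 508 and 568 in U87-R and 585 and 593 after STM2457. The lines overlapped. The change was 0.50 ± 0.22 (SE; limma adjusted p = 0.396). Of the single bases of members, 0 of the 583 tested differed between the lines (limma; 65 at an unadjusted p under 0.05; background 0.000530%). This 0 depended on single libraries: leaving out replicate 2 gave 13 (U87-R, all higher) or 12 (U87), leaving out replicate 3 gave 5 (U87-R) or 2 (U87), and leaving out U87 replicate 1 gave 3. Over all bases these runs called more as well. Without U87-R replicate 2 they were 4403 higher and 971 lower of 174897, beside 13 and 0 of 547 member bases. Without U87 replicate 2 they were 993 higher and 2800 lower of 172095, beside 8 and 4 of 542. Without U87-R replicate 3 they were 1587 higher and 185 lower of 170114, beside 4 and 1 of 539.

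The comparison of STM2457 with the DMSO label in U87-R asks which marks depend on METTL3 activity. It shares its 3 U87-R libraries with the comparison of the lines. With STM2457, 15 of the 42 genes fell (background 38.5%), 3 rose (EIF3D, EIF3G and EIF5; background 6.34%) and 24 were not called. The median log2 change was -0.47, against -0.69 over all 10844 genes, and 28 of 42 changes were below 0 (69.6% of all genes). Because the whole table moved down, the split depends on the scaling. With libraries centred on their median, 8 members were lower (background 24.1%) and 12 higher (background 15.3%), and the median became 0.09, against -0.13 over all genes. All 8 were among the 15, and the 3 were among the 12. Over the 39 members with a sum of at least 10 in 2 U87 libraries, 15 fell (background 44.0%) and 3 rose (EIF3G, EIF4G2 and EIF5; background 4.65%). Without treated replicate 1 the unscaled test called 10 members, 2 higher and 8 lower.

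**Figure D3:**
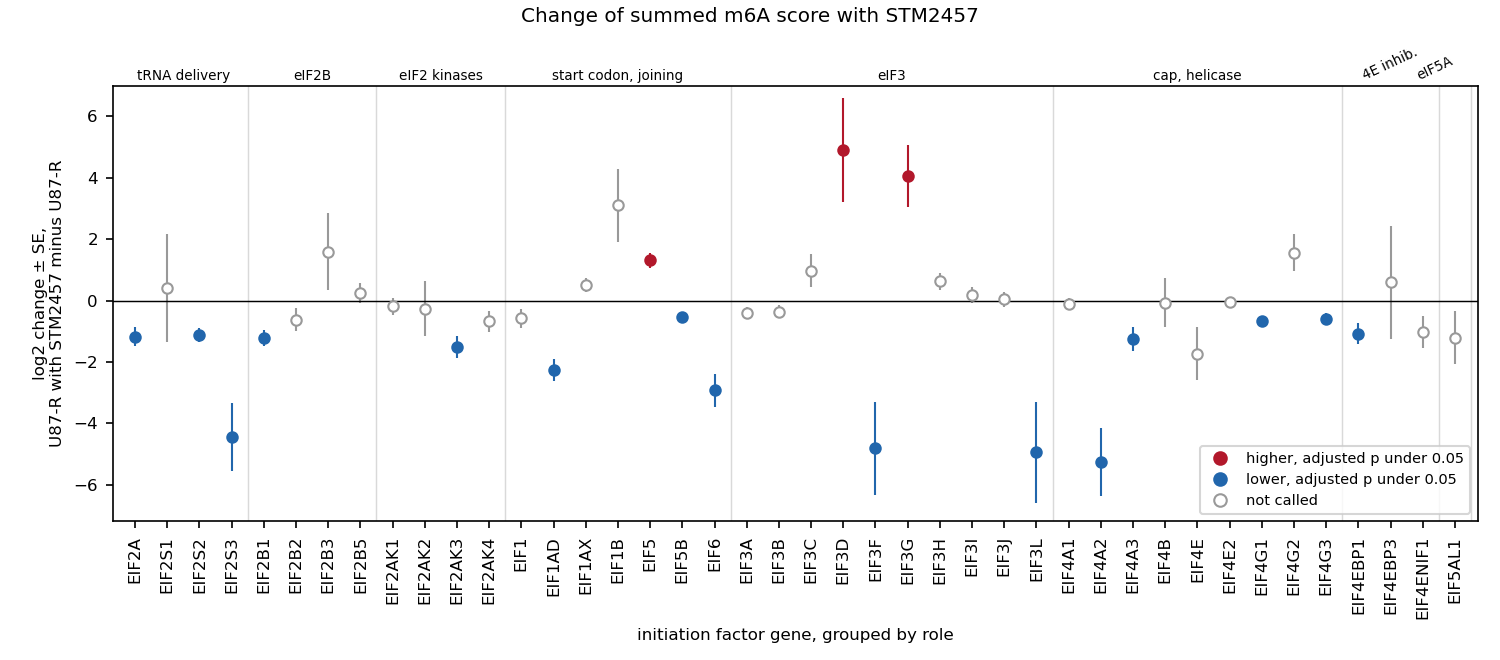
Log2 change of the summed score with STM2457 against U87-R (points, limma) ± SE (bars) for the 42 tested genes, grouped by role. Red points (3 genes) are higher and blue points (15 genes) lower at an adjusted p under 0.05, and open points were not called.

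Among the 6 genes of initiator tRNA delivery, 4 were tested and 3 fell. EIF2S3 (chrX:24054956-24078810, plus strand), the gamma subunit of eIF2 that holds the tRNA, summed to 130.2, 100.4 and 134 in U87, against 149, 23.4 and 124 in U87-R and 11.3 and 0 after STM2457. Both treated libraries lay below all others, and the lowest untreated library was U87-R replicate 2. The change was -4.46 ± 1.11 (SE; limma adjusted p = 0.0106). EIF2S2 (chr20:34088309-34112243, minus strand), the beta subunit, summed to 306, 495 and 363 in U87, against 491, 408 and 503 in U87-R and 212 and 214 after STM2457. The groups did not overlap. The change was -1.12 ± 0.22 (SE; limma adjusted p = 0.00323). EIF2A, a separate protein that can bind initiator tRNA, summed to 175, 244 and 234 in U87, against 279, 171 and 208 in U87-R and 76.4 and 116 after STM2457, also without overlap. The change was -1.18 ± 0.30 (SE; limma adjusted p = 0.0120). Relative to the median of each library the changes were -3.90 (adjusted p = 0.0142), -0.56 (adjusted p = 0.0334) and -0.62 (adjusted p = 0.0484). Without treated replicate 1 EIF2A was at -0.88 (limma adjusted p = 0.111). EIF2S1, the alpha subunit that the stress kinases phosphorylate, was not called.

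Of the eIF2B subunits, which recharge eIF2 with GTP, 4 of 5 were tested and 1 fell. EIF2B1, the alpha subunit, summed to 258, 251 and 322 in U87, against 300.4, 297 and 301 in U87-R and 93.9 and 172 after STM2457. The U87-R libraries lay within a few units of each other and above both treated ones. The change was -1.23 ± 0.26 (SE; limma adjusted p = 0.00549). It was -0.67 (adjusted p = 0.0719) after centring and -0.79 (limma adjusted p = 0.0611) without treated replicate 1. EIF2B3, the gamma subunit, was not called in its sum, but its score inside the gene was 0 in all 6 untreated libraries and 45.2 and 37.4 in the treated ones. Of the 4 eIF2 kinases, all were tested and 1 fell. EIF2AK3, which encodes PERK, the kinase of the endoplasmic reticulum, summed to 131, 236 and 196 in U87, against 404, 236 and 213 in U87-R and 78.9 and 115 after STM2457. Treated libraries lay below all others. The change was -1.51 ± 0.36 (SE; limma adjusted p = 0.00905). Without treated replicate 1 it was -1.24 (limma adjusted p = 0.0653). EIF2AK4, which encodes GCN2, the amino acid sensor, summed to 128, 278 and 235 in U87, against 352, 258 and 303 in U87-R and 231 and 153 after STM2457. Here the treated libraries lay below those of U87-R and overlapped those of U87. The gene was not called, at -0.68 ± 0.34 (SE; limma adjusted p = 0.139).

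Of 8 start codon and subunit joining genes, 7 were tested, 3 fell and 1 rose. EIF6 (chr20:35278906-35284772, minus strand), which keeps the ribosomal subunits apart, summed to 55.6, 80.6 and 47.6 in U87, against 103, 72.8 and 84.1 in U87-R and 6.58 and 16.3 after STM2457. Treated libraries lay far below the untreated ones. The change was -2.92 ± 0.54 (SE; limma adjusted p = 0.00252). EIF1AD (chr11:65996545-66002157, minus strand), named for its eIF1A-like domain, summed to 118, 141 and 101 in U87, against 156, 121 and 145 in U87-R and 22.2 and 36.3 after STM2457, again without overlap. The change was -2.26 ± 0.35 (SE; limma adjusted p = 0.00107). EIF5B, the GTPase of subunit joining, summed to 657, 754 and 696 in U87, against 787, 791 and 859 in U87-R and 577 and 552 after STM2457. Both treated libraries lay below all others. It fell, at -0.52 ± 0.13 (SE; limma adjusted p = 0.00902), but with centring the sign turned, at 0.04 (adjusted p = 0.879). The call was lost without treated replicate 1 (adjusted p = 0.0646) or 2 (adjusted p = 0.0896). EIF5 (chr14:103334237-103345025, plus strand), the activator of the GTPase of eIF2, summed to 129, 139 and 179 in U87, against 215, 210.2 and 151 in U87-R and 525 and 429.9 after STM2457. Both treated libraries lay above all others. The change was 1.32 ± 0.24 (SE; limma adjusted p = 0.00261), or 1.88 (adjusted p = 4.40e-04) after centring.

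In EIF5 some bases were called in the treated libraries alone. At 103335911 on chromosome 14, 1674 nt from the 5′ end, the score was 0, 0 and 0 in U87, against 0, 0 and 0 in U87-R and 36.8 and 38.5 after STM2457. At 103336048, 1811 nt from the 5′ end, it was 0, 0 and 0 in U87, against 0, 0 and 0 in U87-R and 37.1 and 28.8 after STM2457. Of its 28 called bases, 5 were held by both treated libraries and by no untreated one. EIF1B, a paralogue of EIF1, was not called in its sum, at 3.11 ± 1.19 (SE; limma adjusted p = 0.0610). It was called at 3.67 (adjusted p = 0.0254) after centring, and with the replicate block (limma adjusted p = 0.0150). It had 6 bases 95 to 204 nt from its 5′ end that both treated libraries and no untreated one held, the highest at 40309846 on chromosome 3 with 0, 0 and 0 in U87, against 0, 0 and 0 in U87-R and 34.6 and 24.9 after STM2457.

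Of 14 eIF3 genes, 10 were tested, 2 rose and 2 fell. EIF3G (chr19:10115014-10119899, minus strand) rose with STM2457 from the sums given above to 249.9 and 216, above all 6 untreated libraries. The change was 4.05 ± 1.02 (SE; limma adjusted p = 0.0111) and 4.61 (adjusted p = 0.00761) after centring. At 10116836 on chromosome 19, 3063 nt from its 5′ end, the score was 0, 0 and 0 in U87, against 0, 0 and 0 in U87-R and 27.4 and 24.2 after STM2457. Of its 22 called bases, 5 were in both treated libraries and in no untreated one. EIF3D (chr22:36510855-36529166, minus strand), a subunit that can bind caps, summed to 0, 31.6 and 5.54 in U87, against 5.31, 36.3 and 0 in U87-R and 169 and 202 after STM2457. Treated libraries lay far above the rest. The change was 4.91 ± 1.70 (SE; limma adjusted p = 0.0422). Leaving out U87 replicate 3, U87-R replicate 1 or 3, or either treated library ended the call (limma adjusted p = 0.0602 to 0.13).

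EIF3L, a peripheral subunit, summed to 316, 386 and 356 in U87, against 412, 368 and 471 in U87-R and 181 and 0 after STM2457. The treated libraries differed from each other, with no called base in replicate 2. The change was -4.95 ± 1.65 (SE; limma adjusted p = 0.0373). It lost its call without U87 replicate 1, 2 or 3 or U87-R replicate 1, 2 or 3 (limma adjusted p = 0.0531 to 0.083) and after centring (adjusted p = 0.0510). Its base at 37877783 on chromosome 22 was absent from both treated libraries, with 46.8, 49.8 and 46.6 in U87, against 49.7, 50.98 and 52.1 in U87-R and 0 and 0 after STM2457 (limma adjusted p = 3.01e-05). EIF3F, a regulatory subunit, summed to 27.1, 1.35 and 41.1 in U87, against 69.8, 3.77 and 64.5 in U87-R and 0 and 0 after STM2457. It was listed at 0 in both treated libraries (limma adjusted p = 0.0300), and replicate 2 of U87 and of U87-R lay near that. The call was lost without U87-R replicate 1 or 3 or either treated library (limma adjusted p = 0.0854 to 0.0918). EIF3A, the scaffold of the complex, summed to 862, 901 and 971 in U87, against 1148, 713 and 887 in U87-R and 659 and 697 after STM2457. Treated libraries lay below those of U87-R, but the gene was not called, at -0.41 ± 0.19 (SE; limma adjusted p = 0.112). Without U87-R replicate 2 it was, at -0.57 (limma adjusted p = 0.0168).

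Within EIF3A single bases differed in opposite directions. Of its 76 called bases, 6 were in all 6 untreated libraries and in no treated one, 1 was in both treated and no untreated one, and 11 were in all 8. At 119042457 on chromosome 10 the score was 49.3, 50.2 and 53.9 in U87, against 51.96, 59.4 and 49.1 in U87-R and 0 and 0 after STM2457 (limma adjusted p = 2.84e-05). At 119036072 it was 49.4, 48.9 and 59.1 in U87, against 80.6, 54.97 and 61.7 in U87-R and 0 and 0 after STM2457 (limma adjusted p = 2.79e-05). Both bases were called in every untreated library and in no treated one. At 119037149 it was 0, 0 and 6.36 in U87, against 0, 0 and 0 in U87-R and 26.6 and 23.4 after STM2457, the reverse, apart from a low score in U87 replicate 3.

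Of 12 cap binding and helicase genes, 9 were tested and 4 fell. EIF4A2 (chr3:186783577-186789897, plus strand), a paralogue of the helicase EIF4A1, summed to 253, 231 and 289.6 in U87, against 214, 185 and 220.4 in U87-R and 0 and 28.6 after STM2457. The treated libraries lay far below. The change was -5.25 ± 1.11 (SE; limma adjusted p = 0.00490), or -4.69 (adjusted p = 0.00696) after centring. At its base 186789216 on chromosome 3, 681 nt before the 3′ end of the span, the score was 42.3, 35.9 and 40.9 in U87, against 32.8, 35.3 and 36.4 in U87-R and 0 and 0 after STM2457. Of 27 called bases, 8 were in all 6 untreated libraries and in no treated one. EIF4A3, the helicase of the exon junction complex, summed to 63.5, 102 and 60.5 in U87, against 114, 129 and 91.2 in U87-R and 48.9 and 42.4 after STM2457. The groups did not overlap. The change was -1.26 ± 0.39 (SE; limma adjusted p = 0.0266). It was -0.70 (adjusted p = 0.181) after centring and was no longer called without U87-R replicate 1 or 2 or either treated library (limma adjusted p = 0.0581 to 0.117).

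EIF4G1, the scaffold that joins cap and ribosome, summed to 706, 842 and 831 in U87, against 957, 1120.3 and 856 in U87-R and 618 and 616 after STM2457. The treated libraries were nearly equal and lay below the rest. The change was -0.65 ± 0.15 (SE; limma adjusted p = 0.00776), or -0.09 (adjusted p = 0.733) after centring. Of its 55 called bases, 8 were in all 8 libraries, 4 in both treated and no untreated one, and 1 in all 6 untreated and no treated one. The base at 184335032 on chromosome 3, 326 nt before the 3′ end of the span, scored 34.7, 1.66 and 14.1 in U87, against 72.3, 80.8 and 7.37 in U87-R and 0 and 0 after STM2457 (limma adjusted p = 0.0277). The base at 184334897 scored 0, 0 and 0 in U87, against 0, 0 and 0 in U87-R and 33.2 and 28.2 after STM2457. One was called in every untreated library and the other in the treated ones alone. EIF4G3, its homologue, summed to 354, 319.8 and 322 in U87, against 478, 344 and 379.7 in U87-R and 244 and 279 after STM2457. It also fell, with no overlap, at -0.60 ± 0.18 (SE; limma adjusted p = 0.0263). It was at -0.04 (adjusted p = 0.858) after centring, and lost its call with the replicate block (limma adjusted p = 0.0602) and without U87-R replicate 1 or 3 or either treated library (limma adjusted p = 0.0567 to 0.198).

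Of 4 genes of eIF4E inhibitors, 3 were tested and 1 fell. EIF4EBP1, the 4E-binding protein controlled by mTOR, summed to 459, 480.3 and 601 in U87, against 818, 373 and 702 in U87-R and 361 and 221 after STM2457. Treated libraries lay below all others, though U87-R replicate 2 at 373 was close to the first of them at 361. The change was -1.08 ± 0.34 (SE; limma adjusted p = 0.0298), or -0.52 (adjusted p = 0.131) after centring. It was no longer called without U87-R replicate 1 or 3 or treated replicate 2 (limma adjusted p = 0.0857 to 0.189). Its base 156 nt before the 3′ end of the span scored 32.5, 28.3 and 37.8 in U87, against 42.7, 26.7 and 39.5 in U87-R and 0 and 0 after STM2457 (limma adjusted p = 1.40e-04). Of 3 eIF5A genes, EIF5AL1 alone was tested. It summed to 6.96, 60.9 and 24.8 in U87, against 28.4, 23.1 and 21.04 in U87-R and 8.96 and 10.7 after STM2457. The gene was not called, at -1.21 ± 0.87 (SE; limma adjusted p = 0.287).

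Scored apart, the start and the inside of the genes moved in different directions. Genes were taken for these counts by a score of at least 10 in 2 U87 libraries. The U87 mean is not part of the comparison, but the U87 libraries enter its estimate of the spread. This choice leaves out genes with score under treatment alone, in the background as in the members, so it leans towards falls. With the bases within 50 nt of the 5′ end left out, 34 members were tested, of which 21 fell (background 57.8%) and 2 rose, EIF3G and EIF5 (background 3.17%). Their median log2 change was -1.40, against -1.20 over all genes. With those bases alone 18 were tested, of which 2 rose, EIF4E2 and EIF5B (background 13.9%), and 0 fell (limma; 0 also at an unadjusted p under 0.05; background 0.893%). Their median was 0.43, against 0.74 over all genes. The difference between the 2 changes, near minus inside, was called above 0 in 7 of 13 members (background 62.8%) and below 0 in none (limma; 1, EIF5, at an unadjusted p under 0.05; background 1.21%). In the 22 members with enough score in both places in any 2 libraries, 15 were above 0 near the 5′ end and below 0 inside. This count was not made over all genes. The median of near minus inside was 2.16 in these 22, against 2.63 over all 3715 genes with such score. Of these 22, EIF2B3 and EIF3D had that score inside in the treated libraries alone. Near the 5′ end EIF1AD reached 10 in U87 replicate 2 (11.5) and in both treated libraries. EIF4G1 reached it in U87-R replicate 2 (25.2) and treated replicate 2 (19.5), with 0 in treated replicate 1. EIF4G3 reached it in U87-R replicate 2 (38.6) and in both treated libraries (38.8 and 41.6).

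EIF5B shows both movements in 1 gene. Near the 5′ end its score was 161, 170.2 and 162 in U87, against 164, 204 and 194 in U87-R and 352 and 319 after STM2457. The treated libraries lay above all others. The change was 0.84 ± 0.12 (SE; limma adjusted p = 0.00297). Inside, it was 496, 584 and 534 in U87, against 623, 588 and 665 in U87-R and 225 and 234 after STM2457, with the treated libraries below all others. The change was -1.44 ± 0.14 (SE; limma adjusted p = 9.81e-05). EIF4E2, whose whole sum was not called (-0.04 ± 0.16 (SE; limma adjusted p = 0.875)) but was called higher after centring, at 0.52 (adjusted p = 0.0381), had 82.8, 124 and 109 in U87, against 119, 116 and 147 in U87-R and 227 and 259 after STM2457 near the 5′ end. This change was 0.93 ± 0.20 (SE; limma adjusted p = 0.0178). Its inside score was 135, 103 and 132 in U87, against 201, 169 and 183 in U87-R and 63.7 and 57.8 after STM2457. That change was -1.58 ± 0.26 (SE; limma adjusted p = 0.00102). In EIF4A1 the start bases scored 268, 357 and 215 in U87, against 375, 383 and 451 in U87-R and 416 and 422 after STM2457. Their change was 0.06 ± 0.21 (SE; limma adjusted p = 0.831), not called. Inside, it had 127, 67.3 and 76.8 in U87, against 47.9, 58.4 and 43.5 in U87-R and 0.0886 and 0 after STM2457. That fall was -5.60 ± 0.57 (SE; limma adjusted p = 1.06e-04).

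**Figure D4:**
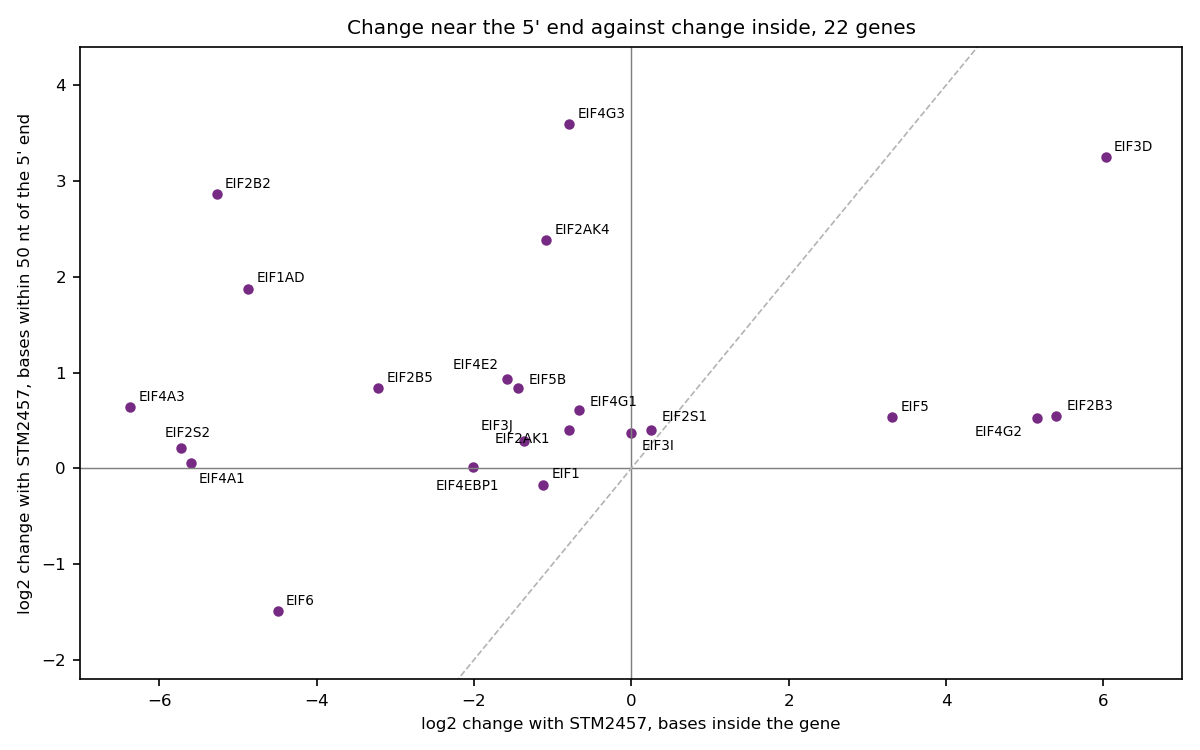
Log2 change with STM2457 of the score within 50 nt of the 5′ end (vertical) against that of the score farther inside (horizontal) for the 22 members with both; the dashed line marks equal change. The upper left field, above 0 near the 5′ end and below 0 inside, holds 15 genes, and EIF2B3, EIF2S1, EIF3D, EIF4G2 and EIF5 lie above 0 inside. No such count was made over all genes.

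Single bases near the 5′ ends mostly stayed, and many inside the genes were lost. Among bases that scored 10 or more in every U87-R library, 50 lay near a 5′ end, and 47 of these (94%) kept at least 10 in both treated libraries. Inside the genes there were 124, of which 44 (35.5%) kept it and 59 (47.6%) were absent from both treated libraries. These bases were chosen for their scores in U87-R, so the counts are a description with no test. Neither these counts nor those that follow were made over all genes, so they show nothing particular to the members. Among bases of all genes that 2 U87 libraries held, 25.7% inside and 1.43% near the 5′ end were called lower. Of all called bases inside the genes, 72 in 25 genes were in all 6 untreated libraries and in no treated one, 49 in 20 genes were in both treated libraries and in no untreated one, and 60 were in all 8. Near the 5′ ends these numbers were 1, 0 and 40. Near was measured from the outer end of the gene span, so a base at a start inside the span counts as inside. EIF2AK3 had such a base 8 nt after a RefSeq start, with 0 in all 6 untreated libraries and 14.6 and 3.70 in the treated ones.

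The test of single bases took those that 2 libraries of any group held, and called 69 of 583 higher (background 6.65%) and 107 lower (background 16.9%). A base held by the treated libraries alone had to be higher in this test, and a base lost from them lower. The counts are therefore repeated over the bases that 2 U87 libraries held. That choice leaves out bases held by the treated libraries alone, in the background as in the members, so it leans towards lower calls. Inside the genes 12 of 315 were then higher (background 1.60%) and 102 lower (background 25.7%). Near the 5′ end 6 of 84 were higher (background 14.1%) and 1 lower (background 1.43%), a base of EIF3I 25 nt from its start. In the test over any group, 62 of 473 bases inside the genes were higher (background 4.82%), and near the 5′ end 7 of 110 (background 19.6%). Of the 62 inside, 43 were absent from all 6 untreated libraries. With either treated library left out such bases could not enter that test, since 2 libraries of a group had to hold them. The smaller number of higher calls in those runs was thus partly set by the filter. It does not show whether the higher calls rest on a single library.

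The last 500 nt of the gene spans, apart from bases near a 5′ end, lost most of their called bases. These stretches held 66, 57 and 65 called bases in the U87 libraries, 65, 55 and 62 in the U87-R libraries, and 17 and 13 in the treated ones. Their summed score in the treated libraries was 0.221 times the U87-R mean, without overlap (exact two-sided permutation test, p = 0.1, the smallest possible). Between the first 50 and the last 500 nt the summed score was 0.685 times the U87-R mean (exact two-sided permutation test, p = 0.2). These stretches were not summed over all other genes, so the loss cannot be called particular to the members. All score of other genes beyond the first 50 nt was 0.518 times that of U87-R. EIF6 had a base of this kind at 35279158 on chromosome 20, 252 nt before the 3′ end of its span, with 21.8, 20.7 and 22.05 in U87, against 22.1, 21.8 and 20.7 in U87-R and 0 and 0 after STM2457. EIF2B5, the catalytic subunit of eIF2B, had one at 184145053 on chromosome 3, 258 nt before it, with 30.1, 34.7 and 44.4 in U87, against 30.1, 38.2 and 42.6 in U87-R and 0 and 0 after STM2457. Both were called in every untreated library and in neither treated one. Exons and untranslated regions were not assigned, since transcript models were not used here.

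**Figure D5:**
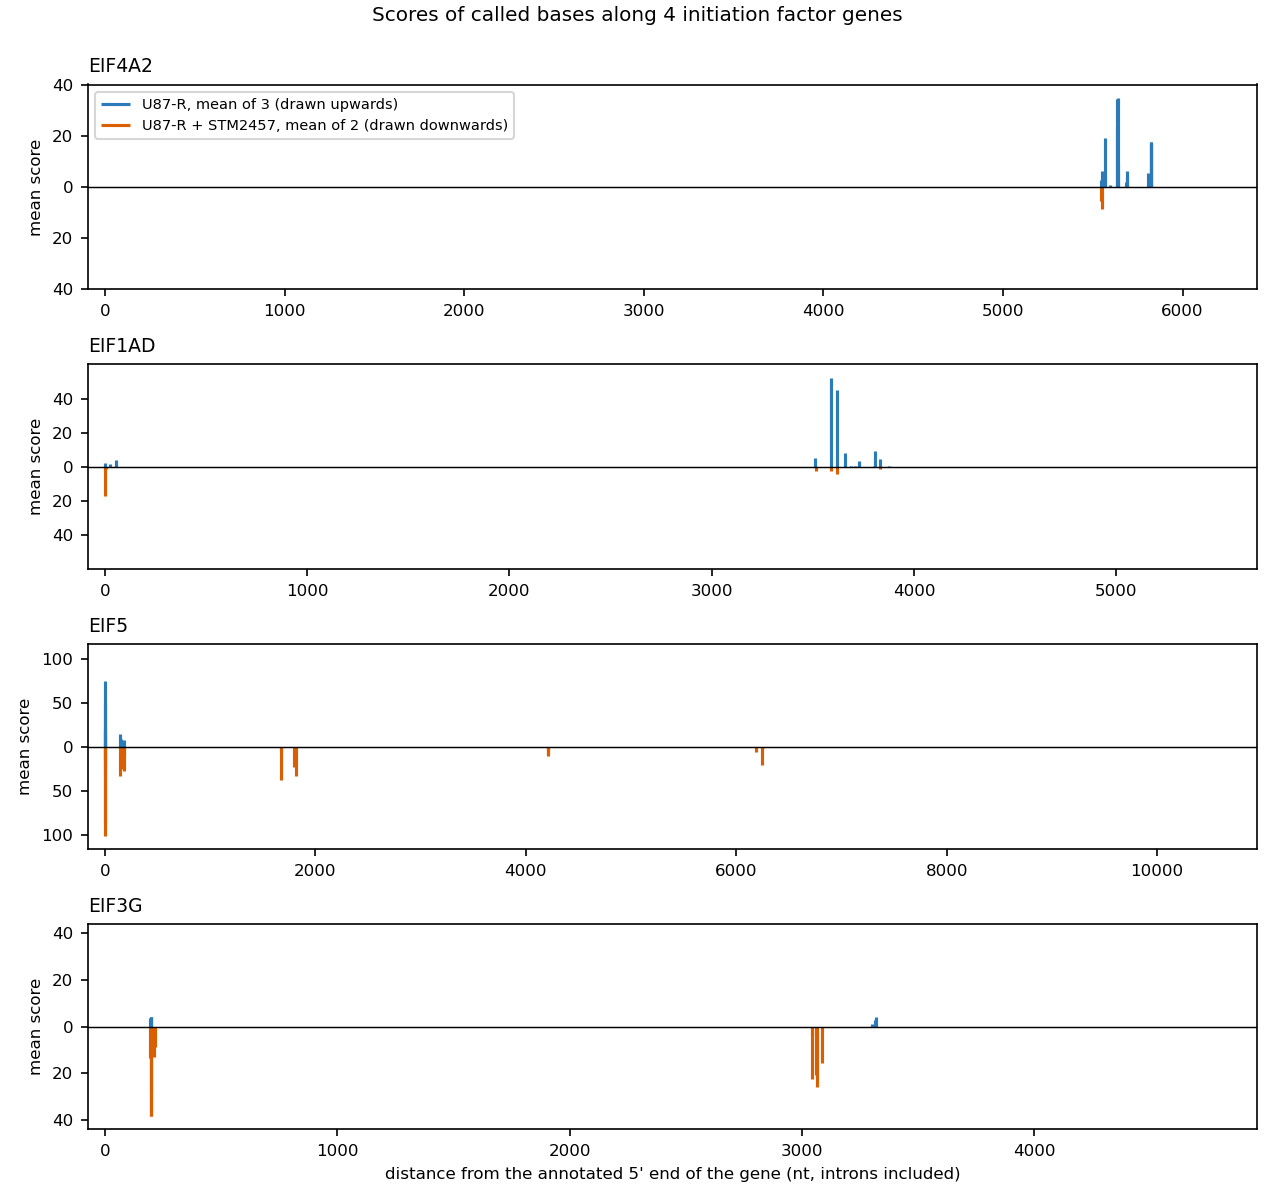
Mean score of each called base (vertical axis) by its distance in nt from the annotated 5′ end (horizontal axis, introns included) in 4 genes. U87-R (mean of 3 libraries) points upwards and U87-R with STM2457 (mean of 2) downwards, with a library without a call counted as 0; the bases of EIF4A2 and EIF1AD towards the 3′ end have little or no treated score, and EIF5 and EIF3G have treated bases where U87-R has none.

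The authors' lists of reproducible sites join the libraries of a group and so carry no replicate error. They held 67 sites in 23 members in U87, 84 sites in 25 members in U87-R and 40 sites in 21 members with STM2457. The whole lists held 33396, 35207 and 12791 sites, of which the members' sites were 0.201%, 0.239% and 0.313%. The smaller number with STM2457 is thus not particular to the members. U87 and U87-R shared 62, or 92.5% of the U87 sites and 73.8% of the U87-R sites. U87-R and the treated cells shared 30, or 35.7% of the U87-R sites and 75% of the treated ones, and 22 sites stood in all 3 lists. EIF3A had 8 sites in U87, 8 in U87-R and 1 with STM2457, and EIF2AK3 had 4, 7 and 0. EIF4EBP1 had 4, 6 and 4, and EIF5 had 2 in each list. The authors' peak lists held 212, 219 and 146 peaks in the members, or 0.222%, 0.227% and 0.292% of all 95629, 96528 and 50034 peaks.

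Of 34 other translation genes (elongation and release factors, poly(A) binding proteins and regulators of eIF2 and eIF4E), 27 were tested. Between the lines 0 were called (limma; 4 at an unadjusted p under 0.05), and with STM2457 3 rose (background 6.34%) and 11 fell (background 38.5%), with a median log2 change of -0.40. Of the 3, BZW1 was the one with enough score in the untreated libraries. MKNK1 and PAIP2 were tested through the treated libraries alone and are given as values. MKNK2, a kinase of eIF4E, summed to 107, 99.2 and 137 in U87, against 183, 59.4 and 115 in U87-R and 0.317 and 0 after STM2457. Next to nothing was left in the treated libraries. The change was -6.57 ± 0.61 (SE; limma adjusted p = 1.18e-04). Its paralogue MKNK1 summed to 0, 5.52 and 9.32 in U87, against 1.02, 0 and 0 in U87-R and 48.5 and 43.6 after STM2457. EEFSEC, the elongation factor for selenocysteine, summed to 4.91, 23.1 and 20.2 in U87, against 49.6, 31.97 and 71.5 in U87-R and 0.443 and 17.2 after STM2457. It fell, at -3.27 ± 1.13 (SE; limma adjusted p = 0.0427). PAIP2, which binds the poly(A) binding protein, was listed at 0 in all 6 untreated libraries and summed to 26.1 and 25.3 in the treated ones.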

How the data were processed

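The members and the gene lists were chosen with earlier results of these data known. The authors deposited, per library, a list of called bases that gives each base's position, strand and score, and, per group, lists of sites and peaks with the fraction of libraries that passed and a score. UMI-tools, cutadapt, STAR and hg38 are named per the submitters' processing notes; for versions, callers and the formula of the score, the sources used here give nothing. The lists hold no counts, so no interval or floor could be given. Genes came from a RefSeq table on GRCh38.p14. Their strand came from the RefSeq promoter table (47 members), from the called bases (6, where at least 5 lay in the span alone and at least 80% on 1 strand), or from general knowledge (EIF3CL, EIF3E and EIF3G). Of 452349 called bases, 400193 (88.5%) lay in a gene of their strand, and each counted for every such gene.

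Scores were summed per gene and library, a base not listed adding 0, and log2(sum + 1) was fitted with limma 3.58.1 (R 4.3.3, mean-variance trend, 3 group means over the 8 libraries, no scaling) over 10844 genes, those whose sum reached 10 in 2 or more libraries. Changes are on this log2(sum + 1) scale, which understates those of low sums. Single bases that 2 or more libraries of a group held were fitted in the same way on log2(score + 1). The difference between near and inside changes was fitted likewise, per library. On simulated data of 10844 genes for STM2457 against U87-R, 16.4% of genes changed by 1 log2 unit, 53.7% of those changed by 2 and 87.9% of those changed by 4 were called. There were 67, 67 and 66 such genes, taken from those with higher sums and changed up or down, and 7 false calls. All other genes were left unchanged, whereas the real table moved down as a whole, so these shares may not hold for the data. Same-numbered U87 and U87-R libraries deviated together (r = 0.105, 0.312 and 0.102), and those of U87-R and STM2457 did not (r = -0.028 and -0.025). U87 replicate 1 with U87-R replicate 3 (r = 0.121) and U87 replicate 3 with U87-R replicate 1 (r = 0.140) did so more than same-numbered replicates 1 and 3. Neither the labels nor these values settle a pairing, and the main tests took the libraries as unpaired. The replicate numbers were used in the run with a replicate block alone.

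The genes named are the 10 largest called changes per direction and comparison without overlap, the member with the highest mean sum of each role, the 3 smallest p between the lines, and up to 2 per direction of the other translation genes, with up to 3 of their bases. EIF1AX, EIF1B, EIF2B3, EIF2B4, EIF2B5, EIF3I, EIF4A1 and EIF4G3, BZW1, the stretch of 500 nt, the fits of start and inside apart and the choice of genes and bases by U87 were chosen after their values were seen. One marker gene looked for as a check of the cell type is not reported here.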

Additional observations from a re-analysis of the deposited data

How the results depend on the processing

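No alternative run called a member between the lines: the count was 0 under other pseudocounts, filters, scalings, scores of at least 10, called bases in place of scores, and every single library left out. With the replicate block, a term for the replicate number over all 8 libraries, the count between the lines was also 0. With STM2457 the block gave 18 members (EIF1B gained and EIF4G3 lost a call) and 143 single bases. The block also joins the treated libraries to same-numbered untreated ones, although those of U87-R and STM2457 did not deviate together. With STM2457 the count of 18 members ranged from 10 to 18 when 1 library was left out, and it was 25 with the bases within 50 nt of the 5′ end left out and 2 with those bases alone. The count of 176 single bases ranged from 86 to 199 when 1 library was left out, and was 121 over bases chosen by U87. Between the lines 0 single bases were called, and 0 to 13 when 1 library was left out. In the runs with member calls the count over all bases also rose. The excess in the share near the 5′ end ranged from 16.9 to 19.2 percentage points when 1 library was left out, and was 7.53 points for the number of called bases. The difference between near and inside changes was called in 16 members with a pseudocount of 10, against 10.

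The sign turned with the bases near the 5′ end alone in EIF1AD (1.88), EIF2S2 (0.21), EIF4A3 (0.64), EIF4EBP1 (0.019), EIF4G1 (0.61), EIF4G3 (3.60), EIF4E2 (0.93, called) and EIF5B (0.84, called), in EIF4E2 with centring (0.52, called) and with scaling to the library total (0.56, called), in EIF5B with centring (0.036) and with scaling to the library total (0.078), and in EIF3A (0.69, called), EIF4G1 (0.43) and EIF4G3 (0.31) with centring and the start bases left out; these settings use other bases or subtract the general fall. Calls were also lost with scores of at least 10 only in EIF2AK3, EIF3F, EIF3L, EIF4A3, EIF4EBP1 and EIF4G3, with the number of called bases in EIF2A (-0.21, adjusted p = 0.421), EIF3L (-1.21), EIF4G1 (-0.56), EIF5B (-0.29) and EIF6 (-1.26), with a pseudocount of 10 in EIF3F, with no filter in EIF3D and EIF3L, and with scaling to the library total in EIF2A, EIF2B1, EIF3L, EIF4A3, EIF4EBP1, EIF4G1, EIF4G3 and EIF5B, and in EIF3L and EIF4EBP1 with U87 left out; the cause was not tested. EIF1AD, EIF2S2, EIF2S3, EIF3G and EIF4A2 kept their call in all other alternatives run.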
